A study of Mus musculus with 4 samples.

Results

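The genes of the mRNA decay machinery were examined in MC38, a line derived from a mouse colon carcinoma. The RNA came from 2 libraries labelled Arid5a knockout (KO) and 2 labelled wild type (WT). The members were the 43 genes of a list of nonsense-mediated decay, deadenylation, decapping and exosome factors, chosen by name, among 24346 gene symbols in each table. All 43 symbols were listed, and 42 reached the mean of 1 FPKM over the 4 libraries that the test required. FPKM scales the fragments of a gene by the transcript length and by the fragment total of the library, so levels of different genes can be set beside each other per length. The KO cells are labelled Arid5a-deficient and the WT cells carry no alteration named in the labels. Nothing in the labels says how the gene was disrupted, whether the KO cells are 1 clone, or whether the libraries of a group came from separate cultures. The p-values therefore measure the spread between these libraries, which may be technical. KPC cells, also mentioned in the series, were not analysed here.

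Messenger RNA decay in the cytoplasm usually starts with the shortening of the poly(A) tail, by PAN2-PAN3 and then by the CCR4-NOT complex. The shortened mRNA is either decapped by DCP2 and its activators and degraded from the 5' end by XRN1, or degraded from the 3' end by the exosome with the SKI complex. Nonsense-mediated decay (NMD) feeds mRNAs with a premature stop codon into these routes through the helicase UPF1. Arid5a is known as an RNA-binding protein that stabilises a set of mRNAs, which gives the decay enzymes their interest in these cells.

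Arid5a itself was 2.16 and 1.77 FPKM in the libraries labelled KO, against 0.225 and 0.124 FPKM in those labelled WT. The targeted gene was thus higher, not lower, under the KO label, so all directions given here follow the deposited labels and say nothing of a loss of Arid5a. The labels do not say how the gene was altered or whether any bases were deleted, and a value per gene cannot tell exons apart. From low values, about 10400000 and 11500000 fragments were estimated for the libraries labelled KO and about 15500000 and 11900000 for those labelled WT. With the longest annotated transcript, the tested members received from about 402 fragments (Exosc4) to about 5883 (Cnot1) in the library where each was lowest. Of 10 epithelial markers, 0 reached a mean of 1 FPKM and Epcam was listed at 0 in each library, so the epithelial origin in the label is not visible in these RNAs, while 4 of 5 fibroblast markers (Pdgfra, Pdgfrb, Col1a1 and Dcn) did. The epithelial list summed to 1.03 and 0.723 FPKM under the KO label, against 0.824 and 1.18 FPKM under the WT label, and the fibroblast list to 12.8 and 13.3 FPKM, against 15.4 and 14.4 FPKM. Within the fibroblast list, Col1a1 was 2.14 and 1.95 FPKM under the KO label, against 0.275 and 0.246 FPKM under the WT label, while Dcn was 0.613 and 0.993 FPKM, against 5.13 and 4.53 FPKM. Col1a1 thus reached 1 FPKM only under the KO label, and Dcn only under the WT label. Both were called (log2 change 1.27 for Col1a1 and -1.70 for Dcn), and Pdgfra and Pdgfrb were not. Of 7 leukocyte markers, only Cd68 reached it, and the summed level of that list was 1.08 and 1.84 FPKM in the libraries labelled KO, against 6.20 and 5.91 FPKM in those labelled WT, with Cd3e, Itgam and Adgre1 at 0 in each. The endothelial list summed to 0.832 and 0.904 FPKM under the KO label, against 0.537 and 0.450 FPKM under the WT label. The part of these lists in the results was not tested. In such bulk RNA, fewer cells with an mRNA and less of it per cell cannot be told apart.

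The comparison asks which decay genes differed between the libraries labelled KO and WT. Most did so by little. Of the 42 tested members, 6 rose, 9 fell and 27 did not pass the test (limma, Benjamini-Hochberg adjusted p under 0.05 over 10827 genes). That is 14.3% higher and 21.4% lower, against 24.4% and 23.3% of all tested genes, and 35.7% called in either direction against 47.6%. With the libraries scaled to the same FPKM sum, 4 members were higher and 12 lower, where 17.9% of all tested genes were higher and 30.1% lower. The median log2 change, on the log2(FPKM + 1) scale, was -0.015 for the members and 0.0056 for all tested genes. The median absolute change was 0.12 for the members and 0.18 for all tested genes, and 1 member exceeded 0.5. The groups did not overlap for 33 members (78.6%), against 77.5% of all tested genes. The calls were spread unevenly over the roles in number: 7 of 10 exosome genes, 4 of 9 NMD genes, 2 of 9 CCR4-NOT genes, 1 of 2 5'-3' exonucleases, 1 of 7 tested decapping genes, 0 of 3 other deadenylases and 0 of 2 SKI genes. At an unadjusted p under 0.05, which 56.1% of all tested genes passed, the last 2 roles had 3 of 3 and 1 of 2. Whether the roles differ was not tested.

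**Figure D1:**
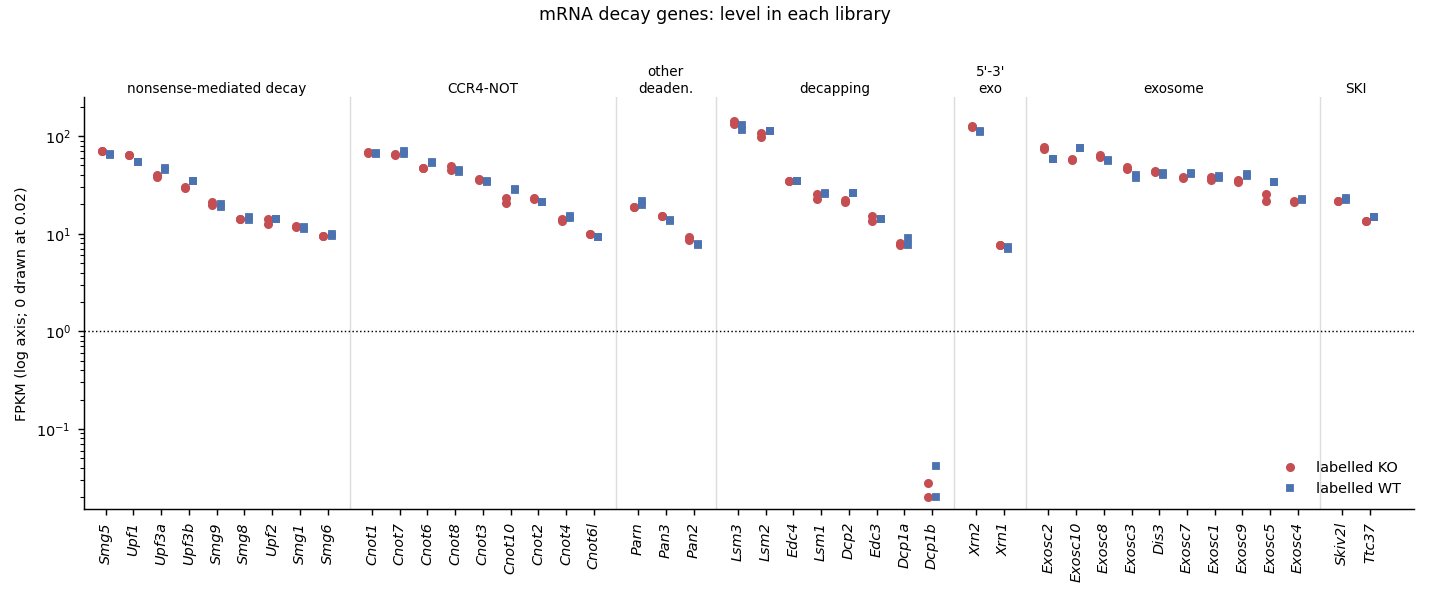
FPKM (log axis) of each of the 43 members in each library, grouped by role; circles are the 2 libraries labelled KO, squares the 2 labelled WT, and the dotted line is 1 FPKM. Tested members had means from 7.37 to 130 FPKM, Dcp1b stayed near 0, and the libraries of both labels lie close together for most genes.

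Among the CCR4-NOT genes and the other deadenylases, only 2 were called, both CCR4-NOT subunits that were lower in the libraries labelled KO. Cnot10 (chromosome 9, 114585878 to 114640184, minus strand), a subunit that binds the N-terminal part of the CNOT1 scaffold, was 23.1 and 20.4 FPKM in the libraries labelled KO, against 28.4 and 28.2 FPKM in those labelled WT. Both KO libraries lay below both WT libraries, and the KO libraries were the more scattered. Cnot10 stood at -0.36 ± 0.066 on the log2 scale (SE; limma, adjusted p = 0.00872), and without WT replicate 1 the adjusted p was 0.0517. Cnot6 (chromosome 11, 49671503 to 49712723, minus strand), which encodes the deadenylase CCR4a, was 46.7 and 47.3 FPKM under the KO label, against 54.1 and 53.6 FPKM under the WT label. The groups were well apart relative to their spread, at -0.19 ± 0.032 (SE; limma, adjusted p = 0.00664). With each library centred on the median of its genes of the same chromosome, Cnot6 stood at -0.099 (adjusted p = 0.0518). The scaffold Cnot1 was 68.5 ± 1.48 FPKM in the libraries labelled KO and 66.0 ± 0.671 FPKM in those labelled WT (SD, n = 2 libraries each), and did not pass the test (limma, adjusted p = 0.234). Gm6158 matches Cnot1 and Gm18860 matches Cnot8 at over 95% identity over at least 200 bases, so reads of these genes could be shared.

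The other CCR4-NOT genes had log2 changes between -0.097 for Cnot4, an E3 ubiquitin ligase, and 0.12 for Cnot2, a subunit of the NOT module. Between these lay the CAF1 deadenylases Cnot7 (-0.062) and Cnot8 (0.091), the CCR4a paralog Cnot6l (0.098) and the NOT subunit Cnot3 (0.058), none of them past the test. Cnot7 stood at -0.0080 without WT replicate 2 and at -0.12 without WT replicate 1, and Cnot8 at 0.024 without KO replicate 2 and at 0.16 without KO replicate 1. Cnot2 passed in 1 alternative, with quantile normalization (adjusted p = 0.0459). Pan2, the catalytic subunit of PAN2-PAN3, was 9.23 and 8.62 FPKM in the libraries labelled KO, against 7.59 and 7.77 FPKM in those labelled WT. The groups did not overlap, but the log2 change of 0.19 ± 0.062 (SE) just missed the threshold (limma, adjusted p = 0.0507). It passed in 4 of 14 alternatives, with adjusted p from 0.042 to 0.19 over them. Its partner Pan3 had a log2 difference of 0.14, and the poly(A)-specific ribonuclease Parn one of -0.14. For both genes the groups did not overlap, and neither was called. With the same FPKM sum per library Parn passed, at -0.20 (adjusted p = 0.0223).

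Among the decapping genes, only the catalytic subunit was called. Dcp2, on chromosome 18, which removes the cap, was 21.9 and 21.2 FPKM in the libraries labelled KO, against 26.0 and 26.0 FPKM in those labelled WT. It fell by 0.26 on the log2 scale (SE 0.041; limma, adjusted p = 0.00576), and the call held in all 14 alternatives. The decapping activators were close to even: the log2 change was -0.072 for Dcp1a, 0.029 for Edc3 and 0.0098 for the scaffold Edc4. Dcp1b, the paralog of Dcp1a, was listed at 0 and 0.0282 FPKM under the KO label and at 0.0419 and 0 FPKM under the WT label, fewer than 3 fragments in any library. A count of 0 still allows up to 3 fragments, or 0.0685 FPKM in the shallowest library, so a difference in Dcp1b was not detectable at this depth. These fragment numbers cover counting error only.

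The LSM1-7 ring binds shortened tails and promotes decapping, and its members Lsm2 and Lsm3 also belong to the nuclear LSM2-8 ring. Lsm3 was 143 and 132 FPKM in the libraries labelled KO, against 116 and 131 FPKM in those labelled WT, the highest level of all members. Lsm2 was 96.9 and 108 FPKM, against 112 and 114 FPKM. Neither passed the test (limma, adjusted p = 0.132 for Lsm3 and 0.0799 for Lsm2), nor did Lsm1 (0.209), which is particular to the cytoplasmic ring. Lsm3 passed in 1 alternative, without WT replicate 2 (adjusted p = 0.0493). Lsm2 passed in 2, without KO replicate 2 (adjusted p = 0.0162) and with the same FPKM sum per library (0.0352).

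The 2 exonucleases that degrade RNA from the 5' end stood far apart in level. The nuclear Xrn2 (chromosome 2, 147012996 to 147078000, plus strand), which acts in transcription termination, was 128 and 124 FPKM in the libraries labelled KO, against 112 and 110 FPKM in those labelled WT. It rose by 0.18 ± 0.032 on the log2 scale (SE; limma, adjusted p = 0.00783), and with chromosome centring it stood at -0.051 (adjusted p = 0.241). The cytoplasmic Xrn1 was 7.64 and 7.61 FPKM, against 7.24 and 7.01 FPKM, and was not called (limma, adjusted p = 0.267). With a mean of 7.37 FPKM over the libraries, Xrn1 was the lowest of the 42 tested members.

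**Figure D2:**
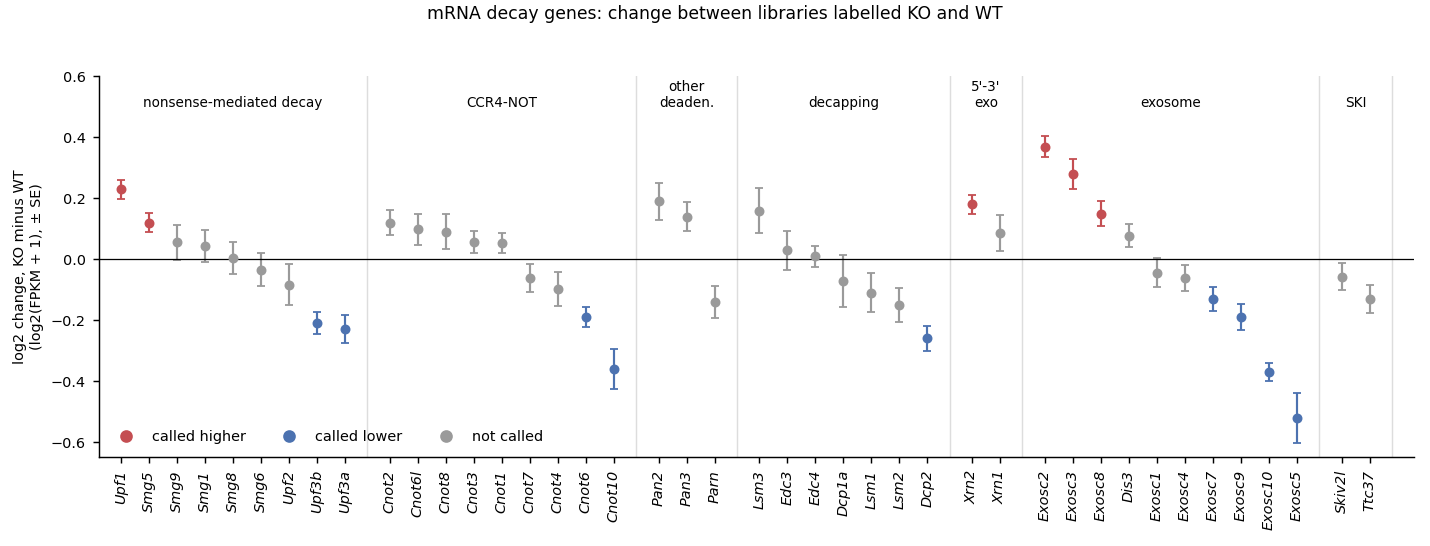
Log2 change (libraries labelled KO minus libraries labelled WT, ± SE from limma) of the 42 tested members, sorted within each role; red, called higher; blue, called lower; grey, not called. The exosome spans the range of the whole list, from -0.52 for Exosc5 to 0.37 for Exosc2, while the CCR4-NOT genes lie between -0.36 and 0.12 and the decapping genes between -0.26 and 0.16.

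The exosome is a barrel of RNase PH-like subunits (Exosc4 to Exosc9) with a cap of Exosc1, Exosc2 and Exosc3, to which the nucleases DIS3 and EXOSC10 attach. Its genes moved in both directions. Of 10 tested, 3 rose and 4 fell, with a median log2 change of -0.053. The 3 that rose were the cap subunits Exosc2 and Exosc3 and the ring subunit Exosc8. The 4 that fell were the nuclear nuclease Exosc10 and the ring subunits Exosc5, Exosc7 and Exosc9.

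The promoter windows of the 2 exosome genes with the largest rise and the 2 with the largest fall among those with a sequence are shown because these genes belong to 1 complex and moved apart. Each runs from 250 bases before to 50 bases after a transcription start (RefSeq, build GRCm38.p6) and is written 5' to 3' on the gene's strand. Capitals mark matches, on either strand, to the ETS motif CCGGAAG, the NRF1 motif (GCGC and TGCGC with any 1 base between), the YY1 motif AANATGGCG, the CCAAT box CCAAT, the E-box CACGTG or the cAMP response element TGACGTCA, none of which overlap here. For Exosc10 the first of 2 listed starts is shown. The Exosc3 window lies inside the annotated span of its gene, not at the 5' end of that span at 45342732.
Exosc2 (chr2:31670465-31670764, plus strand): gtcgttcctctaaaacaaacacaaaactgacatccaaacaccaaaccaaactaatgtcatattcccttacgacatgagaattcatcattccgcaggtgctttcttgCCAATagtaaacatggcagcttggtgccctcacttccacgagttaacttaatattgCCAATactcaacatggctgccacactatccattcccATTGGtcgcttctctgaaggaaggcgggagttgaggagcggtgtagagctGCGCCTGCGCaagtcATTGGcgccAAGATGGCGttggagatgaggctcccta
Exosc3 (chr4:45320567-45320866, minus strand): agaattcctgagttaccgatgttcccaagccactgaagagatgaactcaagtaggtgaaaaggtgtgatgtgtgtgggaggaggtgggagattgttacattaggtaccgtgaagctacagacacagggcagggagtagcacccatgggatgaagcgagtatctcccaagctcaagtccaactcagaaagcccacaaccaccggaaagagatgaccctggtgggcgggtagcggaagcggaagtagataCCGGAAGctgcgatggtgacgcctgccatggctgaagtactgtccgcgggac
Exosc5 (chr7:25658903-25659202, plus strand): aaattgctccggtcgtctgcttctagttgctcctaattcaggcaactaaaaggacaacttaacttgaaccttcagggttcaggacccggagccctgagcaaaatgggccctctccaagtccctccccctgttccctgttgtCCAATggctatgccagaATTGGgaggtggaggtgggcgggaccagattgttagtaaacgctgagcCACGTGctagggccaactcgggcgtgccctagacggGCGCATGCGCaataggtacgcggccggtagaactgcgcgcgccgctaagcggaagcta
Exosc10 (chr4:148558169-148558468, plus strand): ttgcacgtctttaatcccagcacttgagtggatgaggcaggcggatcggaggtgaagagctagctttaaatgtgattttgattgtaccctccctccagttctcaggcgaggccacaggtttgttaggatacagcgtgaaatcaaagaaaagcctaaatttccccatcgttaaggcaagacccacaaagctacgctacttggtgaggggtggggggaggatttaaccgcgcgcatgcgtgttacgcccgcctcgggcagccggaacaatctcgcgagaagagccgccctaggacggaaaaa

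No motif was found in all 4 windows. Those of Exosc2, which rose, and Exosc5, which fell, both held CCAAT boxes and an NRF1 match. Exosc2 and Exosc3, which both rose, shared no motif. The Exosc2 window held 4 CCAAT boxes, 1 NRF1 match and 1 YY1 match after the transcription start. The Exosc5 window held 2 CCAAT boxes, 1 E-box and 1 NRF1 match, and the Exosc3 window 1 ETS match. In the Exosc10 window these letters were not found. Of the 36 members with a window, 11 (30.6%) held the NRF1 motif, against 11.6% of the windows of tested genes and 4.6% of all windows. The ETS motif was in 9 (25%), against 20.4% and 8.86%, and the YY1 motif in 5 (13.9%), against 6.11% and 2.38%. CCAAT boxes were in 14 (38.9%), against 39.9% and 37.4%, and E-boxes in 3 (8.33%), against 10.7% and 7.15%. The cAMP response element was in 0 members, against 3.51% and 1.79%. The table held no window for Cnot1, Cnot7, Dcp2, Exosc4, Exosc9, Lsm1 and Skiv2l. These are letter matches, not sites shown to be bound.

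Exosc2 (chromosome 2, 31670715 to 31681349, plus strand), the gene of the first sequence, was 76.8 and 73.5 FPKM in the libraries labelled KO, against 58.0 and 57.9 FPKM in those labelled WT. It had the largest rise of all members, by 0.37 ± 0.035 on the log2 scale (SE; limma, adjusted p = 0.00128), and with chromosome centring it stood at 0.13 (adjusted p = 0.0284). Exosc3 (chromosome 4, 45316613 to 45342732, minus strand), whose human counterpart is mutated in pontocerebellar hypoplasia, was 47.8 and 46.2 FPKM, against 39.9 and 36.9 FPKM. It rose by 0.28 ± 0.050 on the log2 scale (SE; limma, adjusted p = 0.00787). Both calls held in all 14 alternatives. Exosc8 was 61.1 and 64.2 FPKM under the KO label, against 57.3 and 55.1 FPKM under the WT label, or 0.15 ± 0.041 higher on the log2 scale (SE; limma, adjusted p = 0.0289). That call was lost without KO replicate 2 (adjusted p = 0.11), WT replicate 1 (0.0636) or WT replicate 2 (0.136), and with the libraries scaled to the same FPKM sum (log2 change 0.088, adjusted p = 0.183). It was also lost without the mean-variance trend (0.0675).

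Exosc5 (chromosome 7, 25659164 to 25671368, plus strand) had the largest change of all members. It was 21.4 and 25.4 FPKM in the libraries labelled KO, against 33.9 and 33.9 FPKM in those labelled WT, so the KO libraries were lower and the more scattered. On the log2 scale it stood at -0.52 ± 0.082 (SE; limma, adjusted p = 0.00578). Exosc10 (chromosome 4, 148558429 to 148582401, plus strand), which trims RNAs in the nucleus and nucleolus, was 58.1 and 57.4 FPKM, against 75.6 and 74.7 FPKM. It had the lowest p of the list, at -0.37 ± 0.030 (SE; limma, adjusted p = 0.000799), and both Exosc5 and Exosc10 were called in all 14 alternatives. Exosc9 was 35.9 and 33.9 FPKM under the KO label, against 39.3 and 40.5 FPKM under the WT label, at -0.19 ± 0.044 (SE; limma, adjusted p = 0.0198). Its call was lost without KO replicate 2 (adjusted p = 0.0727), WT replicate 1 (0.0624) or WT replicate 2 (0.106). Exosc7 was 37 and 38.2 FPKM, against 40.5 and 42.1 FPKM, at -0.13 ± 0.039 (SE; limma, adjusted p = 0.0432). That call was lost when any 1 library was omitted, the adjusted p being 0.148 without KO replicate 1, 0.0727 without KO replicate 2, 0.0836 without WT replicate 1 and 0.194 without WT replicate 2. It was also lost with no filter (0.056), with quantile normalization (0.0514) and without the mean-variance trend (0.0818). With the libraries scaled to the same FPKM sum, Exosc7 stood at -0.20.

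The remaining exosome genes did not pass the test. Dis3, the processive exonuclease and endonuclease of the complex, was 43.7 and 43.2 FPKM in the libraries labelled KO, against 40.2 and 42.1 FPKM in those labelled WT (log2 change 0.077; limma, adjusted p = 0.152). The log2 change was -0.044 for the cap subunit Exosc1 and -0.061 for the ring subunit Exosc4. The SKI genes, which deliver mRNAs to the cytoplasmic exosome, were below 0 without a call. Skiv2l, the helicase, stood at -0.058, and Ttc37, the scaffold, at -0.13 (limma, adjusted p = 0.0676), or at -0.19 with the same FPKM sum per library, where it passed (adjusted p = 0.0235). Several called exosome genes share exonic bases with a gene on the opposite strand, and the handling of strand is not given in the sources used here. For Exosc9 this is Ccna2, at 114 and 112 FPKM against 107 and 112 FPKM, and for Exosc8 Supt20, at 20.1 and 20.9 FPKM against 20.4 and 19.2 FPKM. Dcaf10, opposite Exosc3, was 3.73 and 3.90 FPKM against 3.20 and 3.21 FPKM. Tmem91, opposite Exosc5, was below 0.4 FPKM in each library. Gm13427 lies opposite Exosc2, and its level was not examined. In all, 16 members have such an overlap, and 4 share exonic bases with a gene on the same strand. These are Cnot3 (with Mir3572), Edc4 (Nrn1l), Lsm3 (AC161456.1) and Skiv2l (Mir6970), none of them called. Outside the exosome, Upf1 has Gdf1 and Cers1 opposite it, the latter at 1.55 and 1.7 FPKM against 1.17 and 1.13 FPKM. Clk3, opposite Edc3, was 26.5 and 26.3 FPKM against 18.6 and 19.9 FPKM and was called higher (log2 change 0.44).

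In nonsense-mediated decay, the central helicase rose and both UPF3 paralogs fell. Upf1 (chromosome 8, 70331525 to 70353278, minus strand) was 63.6 and 64.6 FPKM in the libraries labelled KO, against 54.7 and 54.6 FPKM in those labelled WT. It rose by 0.23 ± 0.031 on the log2 scale (SE; limma, adjusted p = 0.0036), called in all 14 alternatives. Upf3a (chromosome 8, 13785615 to 13799193, plus strand) and Upf3b (chromosome X, 37091678 to 37110322, minus strand) encode the proteins that link UPF2 to the exon junction complex. Upf3a was 40.1 and 37.9 FPKM under the KO label, against 44.9 and 47.2 FPKM under the WT label, at -0.23 ± 0.046 (SE; limma, adjusted p = 0.0115). Upf3b was 30.2 and 29.6 FPKM, against 34.8 and 34.9 FPKM, at -0.21 ± 0.036 (SE; limma, adjusted p = 0.00721). Upf3b was called in all 14 alternatives, and Upf3a in all but the omission of WT replicate 2 (adjusted p = 0.0674).

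UPF1 is phosphorylated by SMG1 with SMG8 and SMG9, and phosphorylated UPF1 recruits SMG5 and SMG6. Smg5 (chromosome 3, 88336260 to 88362338, plus strand), an adaptor towards deadenylation and decapping, was 70.1 and 70.3 FPKM in the libraries labelled KO, against 65.5 and 63.6 FPKM in those labelled WT. Its rise of 0.12 ± 0.032 on the log2 scale (SE; limma, adjusted p = 0.0312) was among the smallest that were called. It was lost without KO replicate 1 (adjusted p = 0.0897), KO replicate 2 (0.0982), WT replicate 1 (0.0662) or WT replicate 2 (0.145), and with the libraries scaled to the same FPKM sum (log2 change 0.053, adjusted p = 0.292). Without the mean-variance trend the adjusted p was 0.0818. The kinase Smg1 (0.043), the endonuclease Smg6 (-0.034), the kinase regulators Smg8 (0.0033) and Smg9 (0.055) and the bridging factor Upf2 (-0.083) were not called.

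Ratios between paralogs or partners within a library depend little on the scaling between libraries. Of 8 such ratios of (FPKM + 1), 5 did not overlap between the groups, and 4 libraries cannot give an exact permutation p below 0.333. In level, 77.5% of all tested genes did not overlap, and the share among ratios of other genes was not computed. The largest shift was in the exosome nucleases. The log2 ratio of Exosc10 to Dis3 was 0.40 and 0.40 in the libraries labelled KO, against 0.89 and 0.81 in those labelled WT, a difference of -0.45 (exact permutation p = 0.333, two-sided). In FPKM, Exosc10 was 1.33 and 1.33 times the level of Dis3 under the KO label, against 1.88 and 1.77 times under the WT label.

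The second shift was in the deadenylase paralogs. The log2 ratio of Cnot6 to Cnot6l was 2.11 and 2.14 in the libraries labelled KO, against 2.42 and 2.42 in those labelled WT, a difference of -0.29 with a within-group SD of 0.0159. The log2 ratio of Cnot7 to Cnot8 was 0.51 and 0.40 under the KO label, against 0.52 and 0.70 under the WT label, so the groups barely separated. It differed by -0.15, with a within-group SD of 0.104. Without 1 library the difference was -0.24 (WT replicate 1), -0.064 (WT replicate 2) or -0.099 (KO replicate 2). That of Xrn1 to Xrn2 differed by -0.097 and that of Skiv2l to Ttc37 by 0.072 (0.12 without WT replicate 1 and 0.025 without WT replicate 2). In these 3 pairs too the groups did not overlap. The ratios were not recomputed with chromosome centring. With it, Xrn1 stood at 0.079 and Xrn2 at -0.051, and Skiv2l at -0.057 and Ttc37 at -0.0045, so the order within both pairs reversed. Cnot6 stood at -0.099 and Cnot6l at 0.087, closer together than before. Cnot7 stood at -0.071 and Cnot8 at 0.18, further apart than before, and Exosc10 at -0.35 and Dis3 at 0.084. The ratio of Upf3a to Upf3b was 0.40 and 0.35 under the KO label, against 0.36 and 0.43 under the WT label. Both UPF3 genes were lower together, and their ratio overlapped. Pan2 over Pan3 also overlapped (difference 0.053), and Dcp1a over Dcp1b has no meaning beyond the level of Dcp1a, since Dcp1b was at or near 0.

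**Figure D3:**
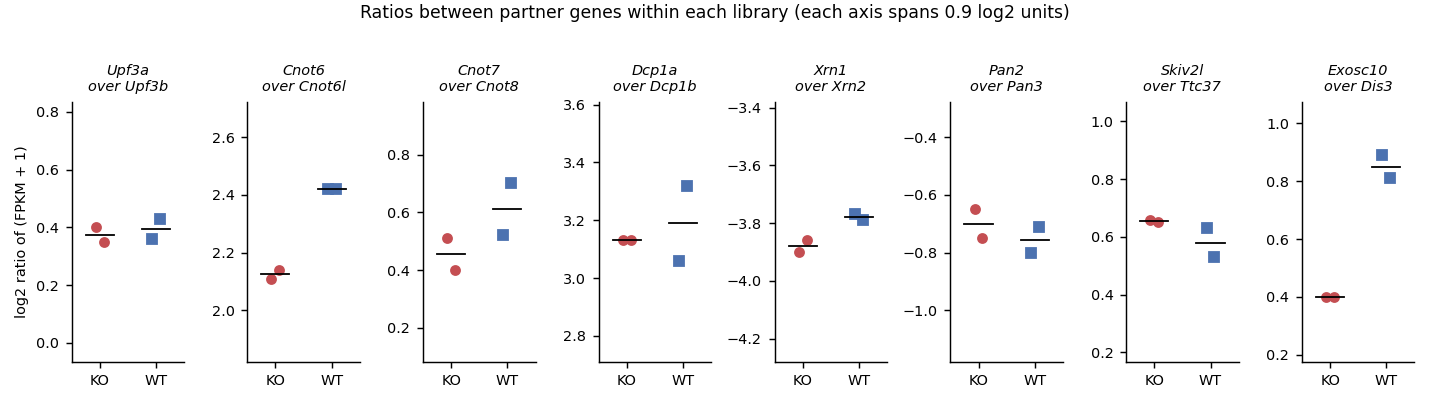
Log2 ratio of (FPKM + 1) between 8 pairs of members within each library; circles, libraries labelled KO; squares, libraries labelled WT; bars, group means; each vertical axis spans 0.9 log2 units around its own centre. Exosc10 over Dis3 and Cnot6 over Cnot6l lie lower in both libraries labelled KO, by 0.45 and 0.29.

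Some changes matched those of the whole chromosome. The median log2 change of the 832 tested genes of chromosome 2 was 0.23, against 0.0056 over all tested genes. It was -0.098 for the 888 genes of chromosome 11, -0.12 for the 392 genes of chromosome 13 and -0.11 for the 413 genes of chromosome 15. Chromosome 12, which holds no member, had a median of 0.15. Xrn2, Exosc2 and Upf2 lie on chromosome 2. With each library centred on the median of the chromosome, Xrn2 stood at -0.051 (limma, adjusted p = 0.241), so its rise was no larger than that of its chromosome. Exosc2 stood at 0.13 and was still called (adjusted p = 0.0284), and Upf2, not called before, stood at -0.32 (adjusted p = 0.0146). On chromosome 11, Cnot6 stood at -0.099 (adjusted p = 0.0518) and Cnot8 at 0.18 (adjusted p = 0.0426). Ttc37 on chromosome 13 stood at -0.0045, and Exosc4 on chromosome 15 at 0.052, neither called. The other 12 called members, among them Exosc10 (-0.35), Exosc5 (-0.56), Exosc3 (0.31), Upf1 (0.22) and Dcp2 (-0.28), stayed called with the centring. The part of the chromosome shifts in these results was not tested further.

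**Figure D4:**
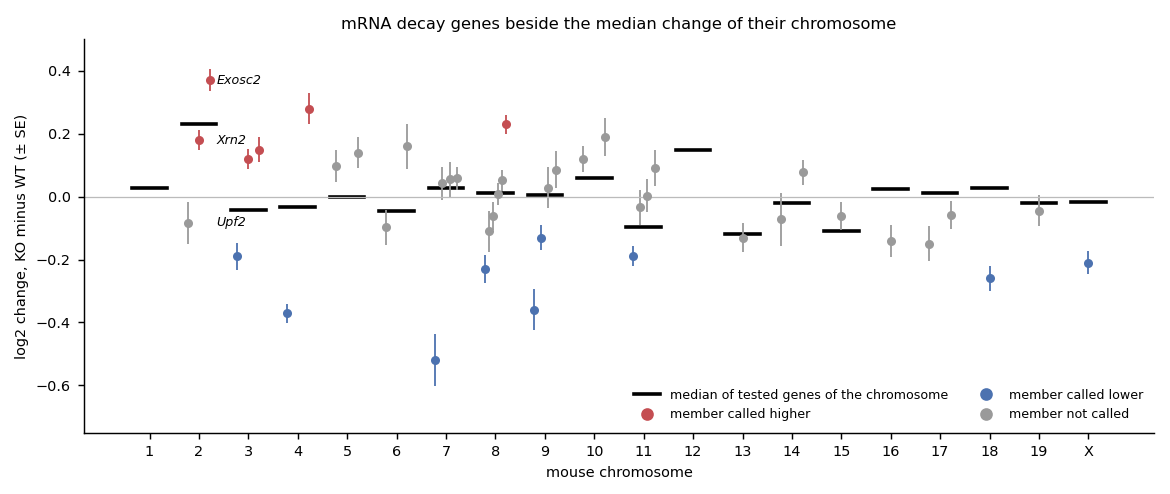
Log2 change (libraries labelled KO minus WT, ± SE) of each tested member, placed on its chromosome, beside the median log2 change of all tested genes of that chromosome (black bar); red, called higher; blue, called lower; grey, not called. On chromosome 2 the median is 0.23, with Exosc2 above it and Xrn2 and Upf2 below it.

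Of 52 other decay genes, all listed, 51 were tested: 8 rose, 13 fell and 30 did not pass the test, so that 41.2% were called, against 47.6% of all tested genes, with a median log2 change of 0.035. The 6 largest called changes include 5 falls. Dhx34, an NMD helicase, fell to 6.81 and 6.45 FPKM in the libraries labelled KO, against 9.88 and 11.2 FPKM in those labelled WT (log2 change -0.59). Tob2, an antiproliferative protein that recruits CCR4-NOT, was 16.3 and 15 FPKM, against 23.8 and 23.6 FPKM (-0.57, or -0.46 with chromosome centring). Btg1 of the same family was 22.2 and 22.4 FPKM, against 30.5 and 31.2 FPKM (-0.45, or -0.51 with the centring). Others of this family differed: Btg3 was lower (-0.35), while Tob1 (0.25) and Btg2 (0.29) had values above 0 without a call (limma, adjusted p = 0.0528 and 0.0565). With chromosome centring Tob1 passed (0.35; limma, adjusted p = 0.0229) and Btg2 did not (0.27, adjusted p = 0.0758). Lsm4, shared by both LSM rings, was 193 and 183 FPKM, against 139 and 130 FPKM, a rise of 0.48.

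Papd7, a noncanonical poly(A) polymerase, was 21.1 and 21.4 FPKM in the libraries labelled KO, against 29.3 and 29.3 FPKM in those labelled WT (-0.45). Pelo, which rescues stalled ribosomes, was 21.2 and 18.2 FPKM, against 27.2 and 26.0 FPKM (-0.42, or -0.29 with chromosome centring). Further factors of the exosome and of the 5' route were chosen after their values were seen. The nuclear exosome helicase Skiv2l2 was 64.9 and 64.5 FPKM, against 83.1 and 84.3 FPKM (-0.37), and the third SKI subunit Wdr61 was lower at -0.29. The symbols Papd7 and Skiv2l2 were not matched to a chromosome, so these genes were not centred. Zcchc8, a scaffold of the nuclear exosome targeting complex, was higher at 0.31. The cytoplasmic poly(A)-binding protein Pabpc1 was 724 and 714 FPKM, against 850 and 873 FPKM (-0.26, or -0.15 with chromosome centring). The decapping helicase Ddx6 stood at -0.21 with and without the centring. The 5' route also held called rises: Lsm14a (0.30), Patl1 (0.25), Lsm14b (0.23, or -0.0037 with chromosome centring) and Lsm6 (0.22). The exon junction subunit Magoh was higher at 0.34, while Eif4a3 of the same complex was lower at -0.097 (-0.004 with chromosome centring). The subunits Casc3, Magohb and Rbm8a were not called. With chromosome centring, Magohb (0.21; limma, adjusted p = 0.033) and Rbm8a (0.14, adjusted p = 0.0228) passed. Of the other decay genes, 12 were then higher and 14 lower, against 8 and 13 without the centring.

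**Figure D5:**
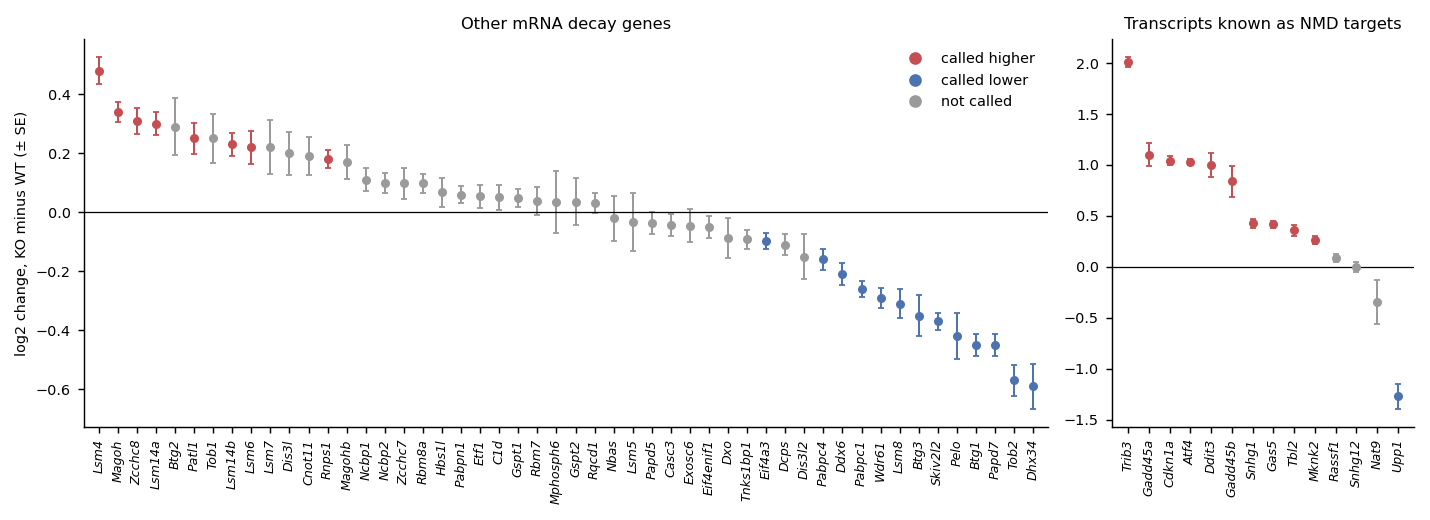
Log2 change (libraries labelled KO minus WT, ± SE) of the tested other decay genes but 1, which was not called (left), and of the 14 tested transcripts known as NMD targets (right); red, called higher; blue, called lower; grey, not called; the vertical axes have different ranges. The left panel has 8 higher and 13 lower genes between -0.59 and 0.48, and the right panel 10 higher and 1 lower between -1.27 and 2.01.

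Transcripts that NMD is known to degrade in mammalian cells were mostly higher. Of 17 in the list, 15 were in the tables and 14 were tested: 10 rose, 1 fell and 3 did not pass the test, or 78.6% called, against 47.6% of all tested genes, with a median log2 change of 0.43. The list was made with earlier results of these data known, and several of its genes were already known to be higher, so the count is not independent evidence of a direction. The largest rises were those of Trib3 (2.01), Gadd45a (1.1), Cdkn1a (1.04), Atf4 (1.03) and Ddit3 (1.00), which are also known as genes of the amino acid stress, DNA damage or p53 responses. Trib3, a pseudokinase on chromosome 2, was 41.4 and 39.1 FPKM in the libraries labelled KO, against 9.35 and 9.07 FPKM in those labelled WT. Atf4, a transcription factor of the integrated stress response, was 400 and 403 FPKM, against 193 and 198 FPKM, and the cell cycle inhibitor Cdkn1a 38.8 and 38.0 FPKM, against 17.7 and 18.6 FPKM. Gadd45a was 15.6 and 12.2 FPKM, against 5.83 and 6.01 FPKM, and Ddit3 27.8 and 35.6 FPKM, against 15.5 and 15 FPKM. In each of these genes both KO libraries lay above both WT libraries. Atf3, below the filter, was 1.54 and 1.63 FPKM, against 0.294 and 0.192 FPKM. The 1 that fell was Upp1, uridine phosphorylase, at 14.4 and 11.7 FPKM against 35.9 and 29.9 FPKM (-1.27).

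The snoRNA host transcripts, noncoding RNAs that NMD clears after their introns have been processed, differed among themselves. Gas5 was 57.0 and 55.3 FPKM in the libraries labelled KO, against 41.7 and 41.5 FPKM in those labelled WT (log2 change 0.42 ± 0.034, SE; limma, adjusted p = 0.000799). Snhg1 was 225 and 238 FPKM, against 176 and 166 FPKM (0.43), while Snhg12 was 50.3 and 52.6 FPKM, against 53.8 and 49.3 FPKM. The first pair did not overlap between the groups and Snhg12 did. Transcripts of several NMD factors are themselves NMD substrates in mammals, and of these Upf1 and Smg5 were higher, Upf3b was lower, and Upf2, Smg1 and Smg6 were not called.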

How the data were processed

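RNA sequencing libraries from MC38 cells were made with a stranded TruSeq kit that selects polyadenylated RNA, per the labels' protocols. The authors deposited 1 value per gene symbol and library. The table headers do not name the unit, and the values were read as FPKM because Cufflinks is among the submitters' tools and low values step by transcript length. The submitters' processing notes name the build mm10, Cufflinks 2.2.1, TopHat2 2.0.13, SAMtools 0.1.19 and Bowtie2 2.2.3; their settings, the annotation and the handling of strand are not given in the sources used here. FPKM sums ranged from 600844 to 638120, and the cause of this spread was not tested.

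The 2 libraries labelled KO were compared with the 2 labelled WT by limma 3.58.1 in R 4.3.3, with moderated variances that follow a mean-variance trend, on log2(FPKM + 1). The 10827 genes whose mean reached 1 FPKM entered. Tests were two-sided and adjusted over all of them by the Benjamini-Hochberg method, with a threshold of 0.05. This scale understates changes of genes near or below 1 FPKM. On simulated data, 73 of 100 genes changed by 0.2 on the log2 scale were called and 100 of 100 changed by 0.5, with 7 false calls. The simulated variances came from the trend alone and far fewer genes changed than here, so recovery in these libraries may differ. Errors are SE for log2 changes and SD (n = 2) for FPKM. Depth was estimated from low FPKM, which step by the worth of 1 fragment: when libraries were divided by each other, 90.8% to 91.9% of such quotients were whole-number fractions (terms up to 6) within 1%. With lengths of genes with 1 transcript, 214 of 342 genes lay within 3% of a line. Counts of fragments were not rebuilt, since Cufflinks adds up isoforms.

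Coordinates and chromosomes came from GENCODE M21 on GRCm38, which mm10 denotes, where 95.6% of symbols matched 1 gene. Copies were searched with BLAST 2.17.0 at 95% identity over 200 bases. The promoter table of RefSeq held 36 of 43 members; motif shares used 1 window for each of 8319 tested genes, and all 32851 windows.

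The members, lists and tests were chosen with earlier results of these data known. Values in each library were given for Arid5a, for up to 4 called members of each role and for the 6 largest called changes among the other decay genes and NMD targets; other genes were chosen after their values were seen. A total of 14 alternatives were tried: pseudocount 0.1, no filter, a filter of 5 FPKM, 3 scalings, centring on each chromosome, no trend, robust moderation, the replicate block and leaving out each of the 4 libraries. Values of 1 other decay gene and 1 marker are not reported here, though the counts include them. Tables and figures used Python 3.11.15 with pandas 2.3.3 and matplotlib 3.10.9.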

Additional observations from a re-analysis of the deposited data

How the results depend on the processing

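Of the 15 called members, 7 were called in all 14 alternatives (Upf1, Upf3b, Dcp2, Exosc2, Exosc3, Exosc5 and Exosc10), and 1, Xrn2, changed sign, with chromosome centring (-0.051). Between 4 and 8 members were called higher and between 6 and 12 lower. Members without a call that changed sign were Smg1 (-0.018), Smg8 (-0.059), Smg9 (-0.0093), Cnot1 (-0.014), Cnot3 (-0.0075), Edc3 (-0.034) and Edc4 (-0.055) with the same FPKM sum per library, Smg8 (-0.0014) with median ratio scaling, and Smg6 (0.059) and Exosc4 (0.052) with chromosome centring. Leaving out 1 library gave -0.042 to 0.049 for Smg8 (lowest without WT replicate 1), -0.17 to 0.030 for Dcp1a and -0.0025 to 0.022 for Edc4 (WT replicate 2 turning both signs), and -0.045 to 0.10 for Edc3 and -0.093 to 0.0047 for Exosc1 (KO replicate 2 turning both). The cause was not tested.

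Scaling to the same FPKM sum moved the median of all genes to -0.055 and the calls to 1939 higher and 3259 lower, or 37.3% higher, against 2641 and 2518, or 51.2%, as deposited. It gave 4 higher and 12 lower members. Leaving out 1 library gave 1666 to 2007 genes called higher and 1550 to 1985 called lower, with fewer samples in the fit; the counts were 1733 and 1592 without WT replicate 1 and 1666 and 1550 without WT replicate 2. Among the NMD targets 1 to 2 were lower, with 2 without KO replicate 1. An arm of 1 library was assumed to vary like the other arm. Same-numbered libraries deviated together only weakly (r = 0.138 over 10827 genes) and nothing in the labels pairs them. With the replicate block, 5 members were higher and 9 lower, against 2369 and 2304 of all genes, Exosc8 losing its call (limma, adjusted p = 0.0597). Depth did not allow Dcp1b to be compared.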
